A study of Caenorhabditis elegans with 8 samples.

Results

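Fasting adults of the Drosha mutant drsh-1(ok369) were compared with fasting adults of wild type N2 Caenorhabditis elegans, across all genes of an Affymetrix C. elegans array. The comparison uses 2 of the 8 arrays of the series, chosen by the strain and food given in the labels, and all 22548 probe sets that are not array controls. Both groups were raised at 20 °C on Escherichia coli OP50, placed on plates with FUDR, which keeps adults from producing progeny, and put on FUDR plates without bacteria from day 2. The fed groups were given UV-killed OP50 instead, and total RNA of whole day 4 adults was labelled. The other 6 arrays are the fed animals of both strains and fed and fasting animals of ain-1(tm3681) and daf-16(mu86), mutants of a microRNA effector that binds Argonautes and of the FOXO factor in insulin signalling. There is a single array per group, so no value here has a replicate error, no difference was tested, and "higher" and "lower" describe these arrays only. Every fold but the ratios of the drsh-1 probe sets is on the scale of log2(intensity + 16). On that scale differences of dim genes come out too small. A gene is represented by its brightest probe set, which gave 17118 genes. How many animals went into each RNA sample was not stated in the sources used here.

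Drosha, DRSH-1 in the worm, works in the nucleus with its RNA-binding partner PASH-1 and cuts the hairpin out of primary microRNA transcripts. The hairpin is then cut by Dicer, and the mature microRNA guides an Argonaute protein to messenger RNAs, which are repressed. In the worm, lin-4 and the let-7 family time the larval stages of the epidermis by repressing genes such as lin-14, lin-41, hbl-1 and daf-12. Fasting adults lower digestive and growth genes and raise genes that release and oxidise stored fat, among them acs-2.

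The probe sets of drsh-1 itself were read first. One probe set had an intensity of 17.1 in fasting drsh-1 animals against 185.2 in fasting wild type, 0.0924 times the wild-type level. The other probe set stood at 356.9 against 68.8, which is 5.19 times the wild-type level. Both ratios are of plain intensities, and on the scale of log2(intensity + 16) the differences were −2.60 and 2.14. The probe sets thus differ in direction, and where they lie relative to the ok369 deletion was not stated in the sources used here. Both directions were the same in fed animals, at 13.96 against 182.8 and 397.0 against 68.7. Of the 77 control probe sets, 0 differed by 2-fold between these arrays, and their median log2 difference was −0.045. The median intensity over probe sets was 37.2 in fasting drsh-1 and 36.5 in fasting wild type. The ratio of 3-prime to 5-prime signal for the GAPDH control was 0.917 and 0.896 on these arrays.

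A total of 472 genes were at least 2-fold higher in fasting drsh-1 than in fasting wild type (2.76% of 17118) and 485 were at least 2-fold lower (2.83%). By probe set the counts were 605 (2.68%) and 596 (2.64%). At least 4-fold differences were found for 75 genes on the higher side (0.438%) and 102 on the lower side (0.596%), and at least 8-fold differences for 14 (0.0818%) and 27 (0.158%). The median over all genes was 0.002, with quartiles at −0.12 and 0.14 on the log2 scale. For scale, fasting ain-1 against the same wild-type array gave 56 higher (0.327%) and 74 lower genes (0.432%), and fasting daf-16 gave 235 (1.37%) and 177 (1.03%). All of these counts share the wild-type fasting array. Set against the other 3 fasting arrays together, fasting drsh-1 was at least 2-fold above each of them for 228 genes (1.33%) and below each for 239 (1.4%). For fasting wild type these counts were 15 (0.0876%) and 7 (0.0409%), for ain-1 they were 3 (0.0175%) and 6 (0.0351%), and for daf-16 they were 70 (0.409%) and 45 (0.263%). An exact permutation test of 1 array against 3 cannot go below p = 0.25 one-sided, so this position was not tested. Dim genes could hardly contribute, since the 4280 genes dimmest in ain-1 and daf-16 held 11 of the higher genes and 0 of the lower ones.

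**Figure D1:**
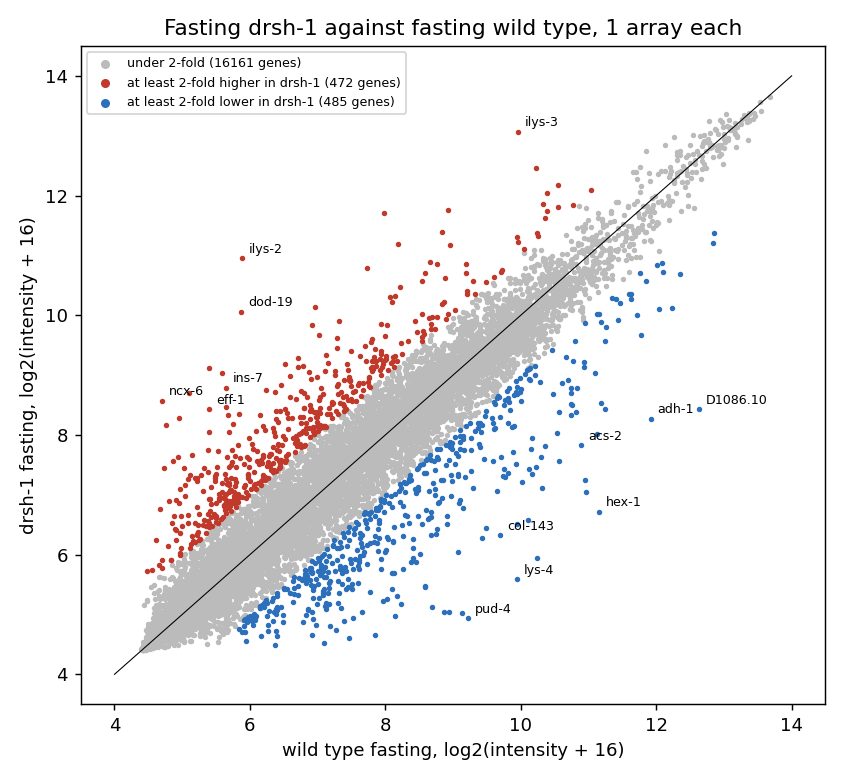
Intensity of every gene in fasting wild type (x axis) and fasting drsh-1 (y axis), both as log2(intensity + 16), 1 array each, with the line of equal values. The 472 genes at least 2-fold higher in drsh-1 are red and the 485 at least 2-fold lower are blue, with ilys-2 far above the line and hex-1, lys-4 and pud-4 far below it.

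The largest difference upward was that of ilys-2, an invertebrate-type lysozyme gene that is part of intestinal defence against bacteria. Its intensity was 1963 in fasting drsh-1, against 42.98 in wild type, 71.8 in ain-1 and 56.9 in daf-16, a 33.6-fold difference from wild type. Its relative ilys-3 stood at 8548 in drsh-1, 974.6 in wild type, 2026 in ain-1 and 74.5 in daf-16. The daf-16 array was thus the lowest of the 4 for ilys-3, and the mutant the highest for both lysozymes. The sodium-calcium exchanger gene ncx-6 was at 364.3 in drsh-1 and between 9.55 and 13.5 on the other fasting arrays. A similar contrast of a clear signal against near background was seen for the acetylcholine receptor subunit gene acr-7, at 270.7 in drsh-1 and 9.41 to 11.3 elsewhere.

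The lipase-family genes lips-13 and lips-11 were both higher in the mutant, but they differed in the fed state. Intensity of lips-13 was 400.6 in fasting drsh-1 against 18.2 in wild type, and it was dim in fed wild type too, at 16.3. In contrast, lips-11 was at 455.2 in fed and 15.03 in fasting wild type, while drsh-1 went from 1140 to 295.9. The thioredoxin gene trx-3 was at 509.2 in drsh-1 and 31.9 in wild type. The fusogen gene eff-1, whose protein merges epidermal cells, was at 329.3 against 25.9, which is 8.23-fold. The other genes among the 15 largest upward differences were dod-19, ins-7, F40D4.13, C50F7.5, F19C7.2, C38D9.2 and srr-4, with log2 differences from 2.99 (srr-4) to 4.19 (dod-19). For C50F7.5 the 3 probe sets ranged from 0.06 to 3.72 on the log2 scale, so its value holds for its brightest probe set.

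Among the 15 largest downward differences were 3 genes for enzymes that break down glycans and proteins. The beta-hexosaminidase gene hex-1, which removes terminal sugars from glycans, was at 89.3 in fasting drsh-1, 2263 in wild type, 2640 in ain-1 and 1428 in daf-16, a 21.6-fold difference from wild type. The lysosomal aspartyl protease gene asp-3 was at 136.1 against 1955 in wild type, and asp-13 of the same family at 17.04 against 474.6. The mutant was far below the other 3 strains for each of these. The lysozyme gene lys-4 was at 32.2 in drsh-1, with 965.7 in wild type, 671.7 in ain-1 and 650.7 in daf-16. So the lysozymes were split, with ilys-2 and ilys-3 higher and lys-4 lower in the same animals.

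The alcohol dehydrogenase gene adh-1 was at 293.4 in fasting drsh-1 and 3848 in fasting wild type, 12.5-fold lower. D1086.10, a gene without a role given here, was at 329.8 in the mutant and between 6310 and 7125 on the other fasting arrays. The genes pud-3 and pud-4, named for proteins that increase in daf-2 insulin receptor mutants, were at 18.8 and 14.7, against 395.8 and 581.2 in wild type. For pud-3 the daf-16 array was nearly as low, at 23.3, and ain-1 was at 55.0. For pud-4 fasting ain-1 and daf-16 were at 159.9 and 179.9, also below wild type. The remaining genes of these 15 were the lectin genes clec-52 and clec-47, the collagen genes col-140 and col-143, and F42A10.7, C41G11.1 and Y73F4A.1, with log2 differences from −4.30 (F42A10.7) to −3.36 (col-143). For each of the 15 upward genes drsh-1 was the highest of the 4 fasting arrays, by at least 2-fold. For each of the 15 downward genes it was the lowest, by at least 2-fold in 14, with pud-3 the exception.

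**Figure D2:**
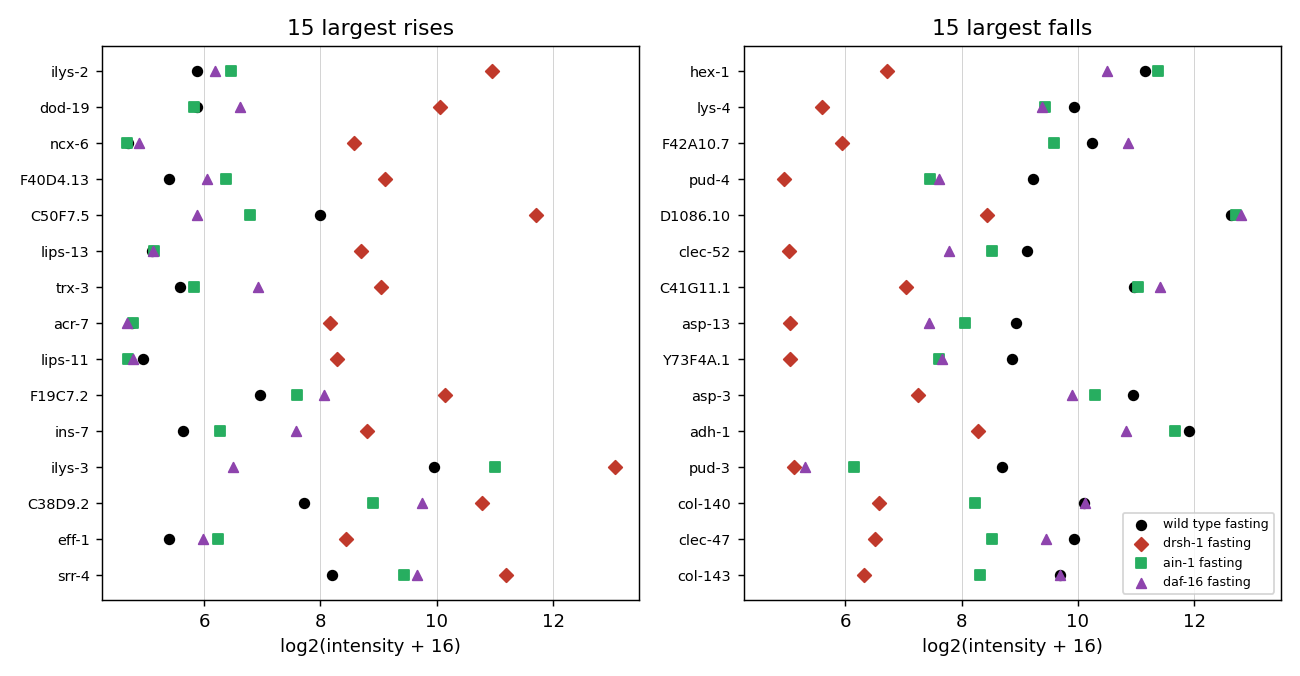
The 15 genes furthest up (left) and the 15 furthest down (right) in fasting drsh-1 against fasting wild type, as log2(intensity + 16) on the 4 fasting arrays, 1 point an array. The red diamonds of drsh-1 lie outside the other 3 strains in every row, and closest to another strain for pud-3.

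The microRNA pathway itself was read next. Of 24 genes of microRNA processing and silencing, 1 was at least 2-fold higher, pash-1, and 1 lower, drsh-1. Each is 4.17% of the list, where 2.76% of all genes were higher and 2.83% lower. The median log2 difference was 0.28, against 0.002 over all genes, and 18 of 24 lay above 0, where 50.7% of all genes did. Intensity of pash-1 was 442.0 in fasting drsh-1, 177.2 in wild type, 192.3 in ain-1 and 192.6 in daf-16. In fed animals it was 388.8 against 180.5. The Argonaute gene alg-1 was just inside 2-fold at 0.99, while the Argonaute genes alg-2 and alg-5 were at −0.11 and 0.147 (all 3 named after their values were seen). Among 22 other Argonautes and small RNA factors, the germline Argonaute gene csr-1 was higher at 621.2 against 267.1, and nrde-3, which carries small RNAs into the nucleus, was lower at 210.4 against 484.5.

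Of 20 heterochronic genes and known microRNA targets, 5 were at least 2-fold higher (25%, against 2.76% of all genes) and 0 lower. The cell death gene egl-1, a target of the mir-35 family, was at 404.7 in fasting drsh-1, 66.4 in wild type, 156.6 in ain-1 and 164.5 in daf-16. The hunchback-like gene hbl-1, a let-7 family target, was at 512.0 against 100.9 in wild type, with 152.5 in ain-1 and 100.5 in daf-16. Both lay above every other fasting array, and both were about as far above wild type when fed (log2 2.47 and 2.13). The nuclear receptor genes nhr-25 and daf-12 were at 230.7 and 382.4, against 47.1 and 149.6 in wild type. The let-7 target lin-41 was at 741.5 against 306.2, with 328.6 and 305.3 in ain-1 and daf-16. Not every target stood higher: lin-14, the first known target of lin-4, was near background at 12.4 against 11.6, and lin-28 was at 343.9 against 475.9, a log2 difference of −0.45. The size depended on the probe set for hbl-1, whose 2 probe sets differed by 0.66 and 2.175, for lin-41 (0.37 and 1.23), for nhr-25 (0.96 and 1.97) and for daf-12, whose 3 probe sets ranged from −0.003 to 1.27.

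Seam cells are the stem-like cells of the larval epidermis that stop dividing, fuse and make adult cuticle at the last molt. Of 17 genes of seam cell fate and cell fusion, 5 were at least 2-fold higher in fasting drsh-1 (29.4%, against 2.76% of all genes). Lower genes numbered 0, and the median was 0.36. Besides eff-1, the cell cycle inhibitor gene cki-1 was at 379.6 against 99.03, and the epidermal GATA factor gene elt-1 at 185.5 against 61.5. The junction gene dlg-1 was at 826.7 against 339.3, and the engrailed homologue ceh-16 at 101.3 against 40.5. Both cki-1 and dlg-1 were also higher in fasting ain-1 and daf-16 than in wild type (204.1 and 266.9 for cki-1, 594.4 and 571.6 for dlg-1), so drsh-1 was the highest of 4 graded values rather than alone.

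Cuticle collagens were mostly lower, with 23 of 128 above 0. Of 128 numbered collagens, 0 were at least 2-fold higher and 23 lower (18%, against 2.83% of all genes), and 66 were below all 3 other fasting arrays (51.6%, against 31.9% of all genes). The adult collagen gene col-19, which is switched on by the let-7 pathway at the end of larval life, was at 75.6 in fasting drsh-1, 464.9 in wild type, 162.0 in ain-1 and 285.9 in daf-16. Larger differences were seen for col-140, at 79.3 against 1088, col-143, at 64.25 against 808.6, and col-101, at 50.3 against 520.4, while col-80 was at 61.1 against 322.9. In the order col-140, col-143, col-101 and col-80, fasting ain-1 was also below wild type, at 283.6, 301.1, 210.4 and 104.8. Fasting daf-16 was at 1101, 812.1, 442.8 and 109.3. The median of the numbered collagens was −0.141 in fasting drsh-1 and −0.118 in fasting ain-1. In the fed pair it was −0.501, with 35 at least 2-fold lower. All 5 collagen genes named here were lower in fasting than in fed animals in both drsh-1 and wild type, and col-140 was at 923.6 in fed drsh-1. Of 18 body shape and blister collagens 3 were lower, dpy-13, dpy-4 and sqt-3 at log2 −1.62, −1.25 and −1.24, and dpy-14 was higher at 1.06. The first 3 were read by probe sets whose names mark them as shared between sequences, and the other probe set of sqt-3 differed by −0.26. Of 31 molting and cuticle assembly genes, 1 was higher (3.23%) and 0 lower. This was ptr-4, at 73.6 against 15.8, though its other probe set differed by 0.29. Of 79 hedgehog-related and patched-related genes 3 were higher (3.8%) and 0 lower, ptr-8 (686.3 against 140.3), ptr-4 and ptr-10. Both shares of higher genes were near the 2.76% over all genes. In whole animals, fewer cells of a type and less RNA per cell cannot be told apart, here and in the tissue lists.

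Some genes that oxidise fat in starvation were far lower in the mutant. The acyl-CoA synthetase gene acs-2 was at 210.6 in fasting drsh-1, 1878 in wild type, 1347 in ain-1 and 840.6 in daf-16. The hydroxyacyl-CoA dehydrogenase gene hacd-1 was at 172.5, with 1501, 1008 and 460.4 in the other strains in that order. Both were thus far below all other fasting arrays, and both were near their fed level in drsh-1 (244.1 and 167.2). Of 40 genes of mitochondrial and peroxisomal fatty acid oxidation, 2 were at least 2-fold higher (5%, against 2.76% of all genes). On the lower side were 5 (12.5%, against 2.83%). The list median was −0.17, so most of the pathway differed little. Another large difference, acdh-1, an acyl-CoA dehydrogenase gene of the propionate shunt, was at 28.6 against 366.7, but ain-1 was also low, at 44.5. Among the carnitine palmitoyltransferase genes, which carry fatty acids into mitochondria, cpt-4 was higher (185.9 against 57.2) and cpt-6 lower (61.6 against 182.1). The remaining genes past 2-fold were cpt-3 (1.09) and the peroxisomal oxidase gene acox-1.5 (−1.22), named after their values were seen.

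Lipid synthesis and lipid release were mixed in direction, where 2.76% of all genes were higher and 2.83% lower. Of 25 genes of fatty acid synthesis, desaturation and elongation, 1 was at least 2-fold higher (4%) and 5 lower (20%), with a median of −0.30. The elongase genes elo-5 and elo-6, which make branched-chain fatty acids, were at 118.2 and 209.2, against 786.9 and 1293 in wild type. Fasting daf-16 was also below wild type for both, at 460.4 and 351.2, while ain-1 was at 703.8 and 1289. In drsh-1 the fatty acid synthase gene fasn-1 went the other way, at 1645 against 569.6, and was above every other fasting array. The desaturase genes fat-7 and fat-3 were at log2 −1.79 and −1.24. For fat-7 fasting ain-1 and daf-16 were also low, at 34.01 and 38.65, with 25.18 in drsh-1 and 126.4 in wild type. Of 24 lipase and lipid droplet genes, 3 were higher (12.5%), lips-13, lips-11 and lips-10 (log2 1.81). The 2 lower ones (8.33%) were the lysosomal lipase genes lipl-1 and lipl-3, which are known to be raised in fasting. For lipl-1 the intensity was 9.20 in drsh-1, with 215.3 in wild type, 132.7 in ain-1 and 204.3 in daf-16. Of 17 lipid binding protein genes 3 were higher (17.6%), far-6 (2364 against 983.1), far-3 and far-8. On the lower side were also 3 (17.6%), lbp-1 (617.5 against 1603), lbp-7 and lbp-3.

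Other stores and sugar pathways held fewer differences, set against 2.76% of all genes higher and 2.83% lower. The yolk protein gene vit-1 was the 1 of 5 yolk genes past 2-fold, at 153.9 against 408.2, and vit-2 was at 3398 against 5286. Fasting ain-1 and daf-16 were also below wild type, at 183.8 and 254.5 for vit-1 and 3699 and 3682 for vit-2. The median of the yolk genes was −0.131 in drsh-1, −0.513 in ain-1 and −0.52 in daf-16. Of 23 genes of the glyoxylate cycle and gluconeogenesis, 0 were higher and 1 lower (4.35%), the pyruvate kinase gene pyk-2 (149.4 against 362.7). The glyoxylate gene icl-1, at 2140 against 4211, was just inside 2-fold. Of 16 glycogen and trehalose genes, the acid alpha-glucosidase genes aagr-2 (214.8 against 653.2) and aagr-1 were lower (12.5%) and 0 higher. In the list of propionate pathways and the methionine cycle, acdh-1 was the 1 of 26 genes past 2-fold (3.85%).

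Lysosomal and digestive genes were mostly lower, with 14 of 53 above 0. Of these 53 lysosomal protease and V-ATPase genes, 11 were at least 2-fold lower (20.8%, against 2.83% of all genes) and 1 higher, cpr-4 (named after its value was seen, log2 1.07). The cathepsin B-like genes cpr-9 and cpr-1 were at 181.4 and 143.3, against 1249 and 841.2 in wild type, and ctsa-2 was at 70.1 against 419.5. For cpr-1 the ain-1 array was also low (267.7), while asp-3 was at 1240 there. Outside this list, the acid ceramidase gene asah-1 was at 15.3 against 266.4, the acid sphingomyelinase gene asm-2 at 12.4 against 109.8, and the lysosomal nuclease gene nuc-1 at 143.9 against 519.8. Of 27 autophagy genes, 2 were lower (7.41%) and 0 higher, epg-2 (277.5 against 755.3) and atg-16.2 (256.5 against 534.6). In drsh-1 both were near their fed values of 285.2 and 244.7.

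Immune genes differed in both directions, where 2.76% of all genes were higher and 2.83% lower. Of 34 lysozymes and caenopores 4 were at least 2-fold higher (11.8%) and 6 lower (17.6%), and besides those above, the antimicrobial peptide genes spp-1 and spp-14 were at 466.1 and 268.7, against 1645 and 943.3. The second probe set of spp-1 differed by −0.11 only. Of 220 C-type lectins 4 were higher (1.82%) and 15 lower (6.82%). The largest were clec-52 (16.7 against 543.7), clec-47, clec-222 and clec-223 on the lower side and clec-41 on the higher side (564.8 in drsh-1, 75.3 in wild type, 77.9 in ain-1 and 75.1 in daf-16). Of 21 genes of the p38 pathway and intestinal effectors, 5 were higher (23.8%) and 1 lower (4.76%). The phosphatase gene vhp-1, which switches off stress kinases, was at 1566 against 453.8, the bZIP factor gene zip-2 at 3136 against 1294, and irg-2 at 523.6 against 136.6, while irg-3 was at 30.1 against 176.7. Of 23 pals genes, the family of the response to intracellular pathogens, 3 were higher (13%) and 0 lower: pals-27 (107.2 against 30.7), pals-6 and pals-23. Of 17 epidermal antimicrobial peptide genes 1 was higher, cnc-4 (428.6 against 203.6), and it was higher still in fasting ain-1, at 869.2.

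The lowest median of the 57 lists, −0.68, was that of the SKP1 family, whose proteins are adaptors in ubiquitin ligases. Of 19 measured, 8 were at least 2-fold lower (42.1%, against 2.83% of all genes) and 2 higher (10.5%, against 2.76%). Below all 3 other fasting arrays were 14 of 19 (73.7%, against 31.9% of all genes). Intensity of skr-7 was 132.1 in fasting drsh-1, 1017 in wild type, 547.6 in ain-1 and 1230 in daf-16. The values of skr-15 were 141.8, 856.1, 536.9 and 1489 in the same order. In fed drsh-1 these genes were at 133.8 and 132.5, so the mutant had similar levels with and without food. skr-13, skr-8 and skr-9 were close to each other in log2 difference (−2.42, −2.43 and −2.41), and their probe sets carry a suffix that marks sequences shared between genes, so their signals may not be separate. The higher members were skr-3 and skr-5 (named after their values were seen), at 1.09 and 1.02. F-box proteins choose the substrates of these ligases, and of 310 genes 19 were lower (6.13%) and 2 higher (0.645%). Examples are fbxb-3 (20.5 against 141.7) and fbxc-28 (26.98 against 166.1) on the lower side and fbxc-58 (486.0 against 111.3) on the higher side. Of 103 BTB and MATH domain genes 3 were lower and 0 higher: btb-6 (100.6 against 424.6), btb-11 and btb-10. That share of lower genes, 2.91%, is near the 2.83% over all genes.

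**Figure D3:**
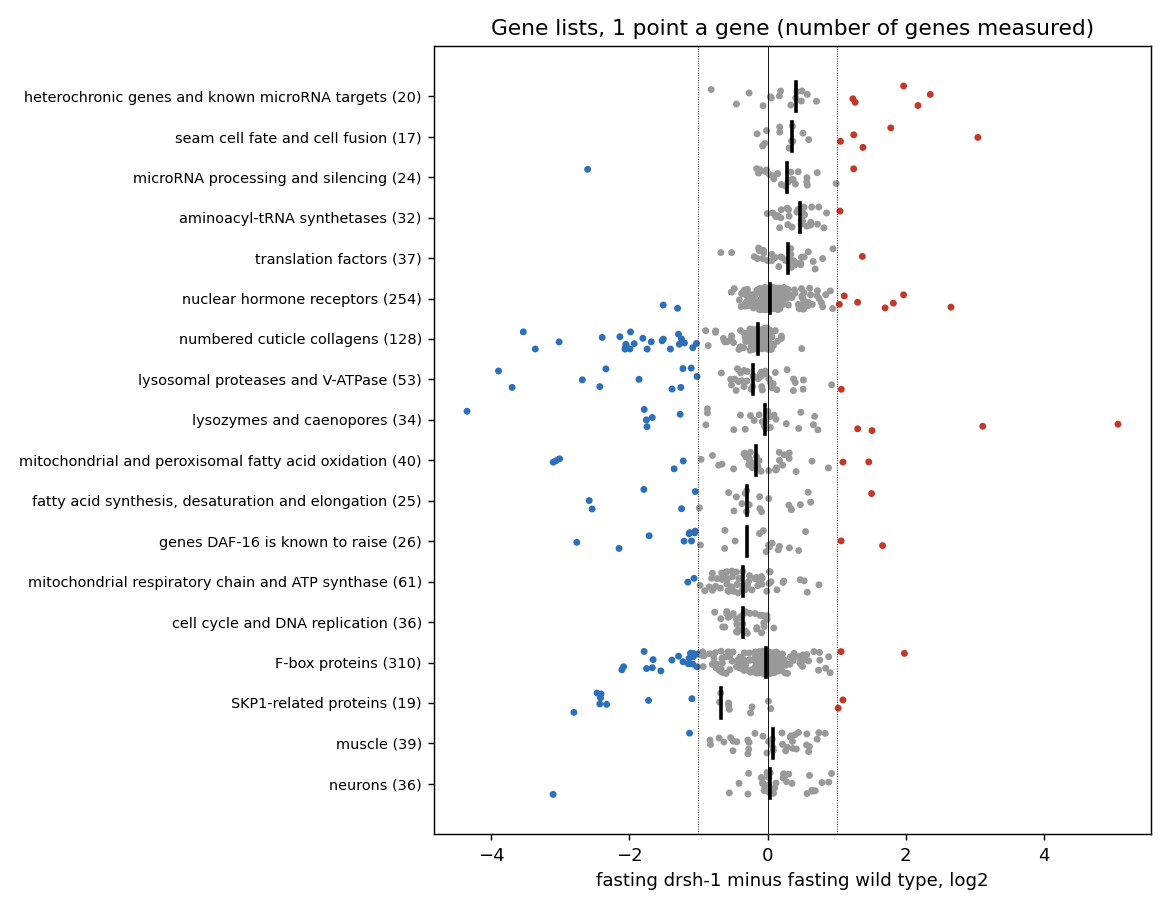
Log2 difference of fasting drsh-1 minus fasting wild type for the members of 18 gene lists, 1 point a gene, with the list median as a black bar and dotted lines at 2-fold. Red points are at least 2-fold higher and blue at least 2-fold lower, with SKP1-related proteins furthest to the left by median and aminoacyl-tRNA synthetases shifted to the right with a single point past 2-fold.

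Targets of the insulin pathway factor DAF-16 were read next. In the list of 26 genes raised by DAF-16, 2 were at least 2-fold higher in fasting drsh-1 (7.69%, against 2.76% of all genes) and 9 lower (34.6%, against 2.83%), with a median of −0.29 in fasting and 0.28 in fed animals. dod-3 was at 160.4 in drsh-1, 1179 in wild type, 530.6 in ain-1 and 98 in daf-16. dod-6 was at 579.2, 1937, 658.0 and 71.0 in that order. Both were lower in the mutant than in wild type but above the level of the daf-16 strain. The metallothionein gene mtl-1 was at 497.8 against 1171, while lea-1, a gene of desiccation tolerance, was higher at 4209 against 1318, although its 6 probe sets ranged from −0.37 to 1.66. In the list of 19 genes lowered by DAF-16, 3 were higher (15.8%) and 5 lower (26.3%). The lower ones were acdh-1 (−3.10), fat-7 (−1.79), nuc-1 (−1.74), ges-1 (−1.19) and dod-18 (−1.12), and the third higher one beside dod-19 and ins-7 was dod-23 (1.67), with dod-18 and dod-23 named after their values were seen. In fasting daf-16 against wild type, fat-7, ges-1 and acdh-1 were also lower (−1.38, −0.98 and −0.55) and nuc-1 was higher (0.75). dod-19 was at 1053 in fasting drsh-1 and between 40.7 and 82.6 on the other fasting arrays. The insulin-like gene ins-7 was at 427.3, with 33.9 in wild type, 61.2 in ain-1 and 174.4 in daf-16, and it was the 1 gene past 2-fold among 35 of insulin-like peptides and signalling.

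Stress and detoxification lists were set against the 2.76% of all genes that were higher and 2.83% that were lower. Of 29 redox genes 2 were higher, trx-3 and the extracellular superoxide dismutase gene sod-4 (589.1 against 216.3), and 3 were lower, mtl-1, mtl-2 and gpx-1. Among the measured genes gpx-1 lies next to drsh-1, and whether its value relates to the ok369 deletion was not tested. Of 22 heat shock genes, hsp-43 was higher (945.7 against 329.3) and hsp-12.3 lower (96.5 against 225.3). For hsp-43 ain-1 and daf-16 were also high in fasting, at 810.3 and 713.5, so the wild-type array was the one apart. The 22 genes of endoplasmic reticulum stress and folding had 0 past 2-fold, with hsp-4 at log2 0.59 and xbp-1 at 0.56. Of 73 cytochromes P450, 2 were higher and 4 lower, with cyp-33C8 at 766.7 against 139.8, cyp-25A2 at 45.5 against 324.4 and cyp-34A9 at 65.2 against 414.3. Fasting daf-16 was low for both of the latter, at 65.7 and 46.1. Of 64 UDP-glucuronosyltransferases 4 were higher (6.25%) and 6 lower (9.38%), led by ugt-44 (21.3 against 234.5). Of 45 glutathione S-transferases gst-24 was lower (470.9 against 1098) and 0 higher.

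Lists of protein synthesis, respiration and the cell cycle held few genes past 2-fold, where 2.76% of all genes were higher and 2.83% lower. The shares past 2-fold were 3.12% higher for synthetases, 2.7% higher for translation factors, 3.28% lower for the respiratory chain and 2.7% higher for histones. Each was near the share over all genes. Of 32 aminoacyl-tRNA synthetases, 31 lay above 0 with a median of 0.46, 22 were above all 3 other fasting arrays (68.8%, against 31.3% of all genes), and 1 was past 2-fold, iars-1 (1722 against 824.9). Their median in the fed pair was 0.55. Of 37 translation factors 1 was past 2-fold, the eIF4A gene inf-1 (2525 against 967.2), and the median was 0.30. The 62 cytosolic and 56 mitochondrial ribosomal protein genes had 0 past 2-fold each, with medians of 0.001 and 0.07. Of 61 genes of the respiratory chain and ATP synthase, 2 were lower, asg-2 (427.8 against 971.8) and gas-1 (409.9 against 874.2), and 0 higher. Their median was −0.36 and 42 were below all 3 other fasting arrays (68.9%, against 31.9% of all genes), whereas the median in the fed pair was 0.05. Of 36 cell cycle and DNA replication genes 0 were past 2-fold, but 35 lay below 0, with a median of −0.36 in fasting and −0.13 in fed animals. cyb-3, a mitotic cyclin gene, was at 3537 against 6026. The 33 proteasome genes had a median of 0.02 and 0 past 2-fold, and of 37 histone genes the linker histone gene hil-5 was higher (3640 against 1738) while the median was −0.31.

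The medians of the tissue and germline lists lay between −0.24 and 0.25. Counts past 2-fold are set against 2.76% of all genes higher and 2.83% lower. The 39 muscle genes had a median of 0.08, the 36 neuronal genes 0.04, the 22 intestinal genes 0.07, the 23 epidermal genes 0.13 and the 19 pharyngeal genes 0.16. Past 2-fold were, among others, the muscle myosin light chain gene mlc-2 (1028 against 2267), the pharyngeal genes phat-3 (1.15) and inx-2 (−1.503), and in the epidermal list nhr-25 and col-19. tbh-1, which makes octopamine and is known in the RIC neurons and the gonadal sheath, was at 244.2 in fasting drsh-1 and 2219 in wild type, with 1689 in ain-1 and 630.0 in daf-16. The innexin gene inx-8, which couples the gonadal sheath to germ cells, was at 202.4, with 1122, 915.9 and 638.2 in that order. Both were below every other fasting array. In the same list of 24 genes of somatic gonad, vulva and male, zmp-1, a metalloprotease gene of the anchor cell, and the Hox gene mab-5 were higher, at 266.5 against 56.9 and 212.8 against 72.5. The intestinal actin gene act-5 was higher (381.7 against 115.7), while the gut esterase gene ges-1 was lower (36.5 against 103.3). In all, 1 of the 22 intestinal genes was higher and 4 were lower (18.2%, against 2.83% of all genes), the others being asah-1, mtl-1 and pgp-1. Of 43 germline, P granule and meiosis genes 1 was past 2-fold (2.33%), the lower fog-1 (201.5 against 419.7), with a median of 0.21. Oocyte and eggshell genes (28 measured, 1 or 3.57% higher, median −0.24) differed little. So did sperm genes (73 measured, ssp-37 and ssp-10 or 2.74% lower, median −0.02). The germline, oocyte and sperm shares were near those of all genes.

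Signalling and receptor families were read against the same shares of all genes. Of 85 neuropeptide genes 4 were at least 2-fold higher (4.71%, against 2.76% of all genes) and 3 lower (3.53%, against 2.83%). nlp-16 was at 338.3 in drsh-1 and between 25.16 and 34.25 on the other fasting arrays, and flp-5 at 259.2 against 78.5. On the lower side, nlp-51 was at 105.0 against 536.0 and nlp-40, an intestinal peptide that times defecation, at 448.6 against 1543. Of 254 nuclear hormone receptors 7 were higher (2.76%) and 2 lower, with nhr-3 at 796.8 against 113.2, nhr-63 at 142.7 against 28.99, nhr-67 at 249.9 against 65.9 and nhr-2 at 130.7 against 401.9, although the 4 probe sets of nhr-2 ranged from −1.72 to −0.02. That share of higher genes is the one over all genes. Of 22 TOR and AMP-activated kinase genes aak-1, a catalytic subunit of the kinase that senses low energy, was higher at 348.3 against 131.6. Of 10 aquaporins aqp-1 was lower, at 149.6 against 884.9. The 1261 chemoreceptor genes, mostly dim, had 2 past 2-fold, str-124 and srd-53, both higher.

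The same strain contrast in fed animals uses a separate pair of arrays. There, 527 genes were at least 2-fold higher in drsh-1 (3.08%) and 423 lower (2.47%). Of the 472 genes higher in fasting, 279 were also higher by 2-fold in the fed pair (59.1%), 6 were lower by 2-fold, and 444 had the same sign (94.1%). Of the 485 lower in fasting, 183 were lower by 2-fold when fed (37.7%), 5 were higher and 432 had the same sign (89.1%). The shared genes made up 52.9% of those higher and 43.3% of those lower in the fed pair. Over 17118 genes, which are not independent replicates, the differences had a Pearson correlation of 0.671 and a Spearman correlation of 0.56. The pairs share no array, but both arrays of a strain share its stock. The genes whose smaller difference of the pairs was largest, with the same sign in both, were ilys-2 (5.07 fasting, 5.09 fed), ncx-6 (3.87, 4.04), F40D4.13 (3.72, 4.00), acr-7 (3.40, 3.30), F19C7.2 (3.18, 3.39) and ilys-3 (3.11, 6.61) on the higher side. On the lower side these were pud-4 (−4.28, −4.05), clec-52 (−4.096, −3.56), D1086.10 (−4.19, −3.50), lys-4 (−4.35, −3.16), asp-3 (−3.70, −2.88) and Y102A5C.6 (−2.76, −2.86). The size still differed between the pairs by over 2-fold for ilys-3 and lys-4.

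Other genes differed between strains mainly with food or mainly without it. In fed animals bcf-1 was at 12.4 in drsh-1 against 1566 in wild type, but in fasting it was at 11.95 against 19.3. mbug-1, dod-24 and F01D5.2 were alike in this, at 172.4, 26.25 and 44.5 in fed drsh-1 against 1451, 545.6 and 594.4 in fed wild type, and within a log2 difference of 0.4 in fasting. All 4 were far lower in fasting than in fed wild type, down to between 19.3 and 35.4. Conversely dod-19 differed by −0.70 when fed and 4.19 in fasting, and C17F4.7 by −0.80 and 2.55, with fasting levels of 1053 and 2661 in the mutant and 42.45 and 442.1 in wild type. For C17F4.7 fasting ain-1 and daf-16 were also high, at 1292 and 2086, so the low value was that of the wild-type array. F42A10.7 differed by −0.74 fed and −4.30 in fasting, and adh-1 by 0.86 and −3.64.

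**Figure D4:**
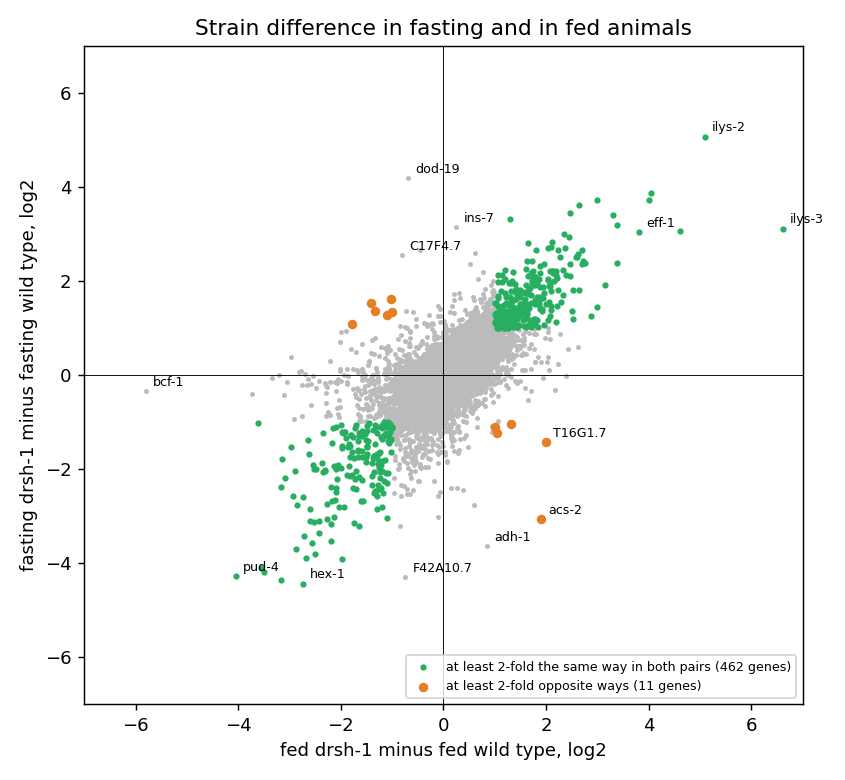
Strain difference of each gene in fed animals (x axis) and in fasting animals (y axis), drsh-1 minus wild type on the log2 scale, 1 pair of arrays per axis. The 279 genes higher and 183 lower by 2-fold in both pairs are green and the 11 genes at least 2-fold opposite ways are orange, while dod-19 and F42A10.7 lie near the y axis and bcf-1 near the x axis.

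To set these differences beside the fasting response without using any array of the comparison, genes were chosen that changed by at least 2-fold the same way in ain-1 and daf-16 between fed and fasting. There were 290 such risers and 298 fallers. Of the risers, 117 were at least 2-fold lower in fasting drsh-1 than in fasting wild type (40.3%, against 2.83% of all genes). Another 22 were at least 2-fold higher (7.59%, against 2.76%). The median difference was −0.665 in fasting and 0.34 in fed animals. These 117 genes were 24.1% of all 485 lower genes. Besides adh-1, hex-1, lipl-1 and pud-4, the risers furthest down were F42A10.7 (45.6 in drsh-1, with 1197 in wild type, 750.5 in ain-1 and 1842 in daf-16) and C41G11.1 (115.5, 1972, 2077 and 2711). Over the 290 risers, wild type had a median log2 level of 6.55 with food and 7.86 without, and drsh-1 of 7.19 and 7.24. By these medians the mutant stood above wild type with food and below it without.

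Fallers showed a smaller difference in fasting. Of 298, 64 were at least 2-fold lower in fasting drsh-1 (21.5%, against 2.83% of all genes). Higher were 29 (9.73%, against 2.76%), and the median was −0.21. In the fed pair 206 of the fallers were at least 2-fold lower in drsh-1 and 2 higher, with a median of −1.37. Over all genes 2.47% were lower and 3.08% higher in that pair. The median log2 level of the fallers was 9.29 in fed and 7.13 in fasting wild type, against 7.79 and 6.70 for drsh-1. The fallers that stood highest in fasting drsh-1 were dod-19, lips-11, ins-7, clec-41, C18H9.6 (log2 2.59) and C17F4.7. For ins-7 the mutant had 421.1 with food and 427.3 without, while wild type went from 352.4 to 33.9. On the daf-16 fasting array the 3-prime to 5-prime ratio of the catalase control was 3.40, against 1.47 to 1.79 on the other 3 fasting arrays, and its part in the choice was read by choosing in ain-1 alone. That gave 325 risers with a median of −0.63 and 432 fallers with a median of −0.053.

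**Figure D5:**
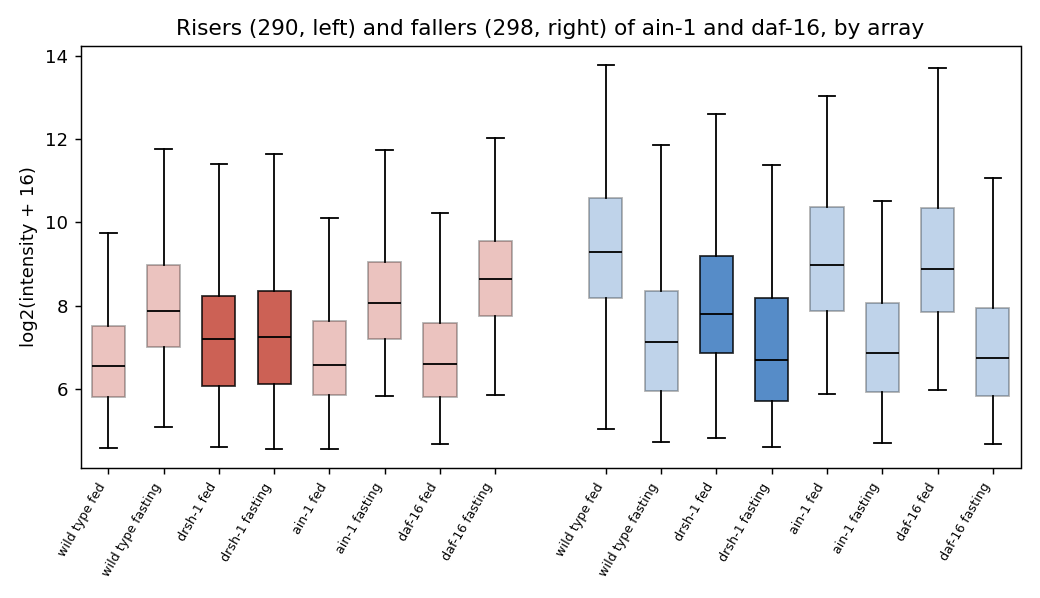
Level of the 290 risers (left, red) and 298 fallers (right, blue) of ain-1 and daf-16 on each of the 8 arrays, as log2(intensity + 16), with boxes from the lower to the upper quartile, a line at the median and whiskers to 1.5 times the box. The drsh-1 boxes (darker) are level between fed and fasting for the risers, at medians of 7.19 and 7.24, and closer together than in wild type for the fallers.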

How the data were processed

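Trizol-extracted total RNA went through 3-prime in vitro transcription labelling, per the labels' protocols, and was read on 8 Affymetrix arrays. Values deposited by the authors are linear array intensity; how they were summarised and scaled was not given in the sources used here, and array medians lay between 35.15 and 37.68. They were used as deposited. After removal of 77 control probe sets, 22548 were taken as log2(intensity + 16) and fasting wild type was subtracted from fasting drsh-1. The platform annotation gave 1 symbol for 20766 probe sets, several for 887 and none for 895. By Entrez number, 20701 were updated to RefSeq names of WBcel235 and 65 kept. With 1 array a group there was no test, and genes were counted at 2-fold. As the only spread available, the residual SD of strain plus food over the 8 arrays gave a difference of 0.146 on the log2 scale in the median probe set. The 57 gene lists and the rules were chosen with earlier results of these data known. Named genes were the drsh-1 probe sets, the 15 largest each way, up to 5 a list, and 6 each way for the fed pair and the responders. Alternatives were a pseudocount of 1 or 64, quantile or median scaling, filters on dim probe sets, thresholds of 1.5-fold and 3-fold and averaging each gene's probe sets. The steps were tested on simulated data. Python 3.11.15, pandas 2.3.3 and scipy 1.17.1 were used.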

Additional observations from a re-analysis of the deposited data

Results flagged for a closer look

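A total of 11 genes differed between drsh-1 and wild type by at least 2-fold one way in fed animals and at least 2-fold the other way in fasting animals. The difference between the pairs was not tested, since each pair is 1 array against 1.

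The 5 genes lower in fasting drsh-1 and higher in fed drsh-1 were acs-2 (log2 −3.06 in fasting, 1.90 fed), T16G1.7 (−1.43, 1.99), F09F7.6 (−1.24, 1.045), the small heat shock gene hsp-12.3 (−1.101, 1.003) and the glucuronosyltransferase gene ugt-1 (−1.04, 1.31). In wild type each was higher in fasting than fed, from 29.96 to 524.1 for T16G1.7 and from 168.0 to 1006 for F09F7.6, while drsh-1 had 166.7 and 184.8 for the first and 363.8 and 417.7 for the second. The mutant thus lay between the fed and the fasting level of wild type on both of its arrays. The rule that chose these genes largely sets this position, so it is not a separate result.

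The 6 genes higher in fasting drsh-1 and lower in fed drsh-1 were Y37H2A.14 (1.61, −1.03), irg-8 (1.53, −1.404), the lectin gene clec-173 (1.36, −1.33), the galectin gene lec-6 (1.33, −1.01), the claudin-like gene clc-1 (1.28, −1.11) and sysm-1 (1.09, −1.785). These went down in fasting wild type, from 3411 to 205.8 for lec-6 and from 1726 to 209.1 for clc-1, and drsh-1 had 1687 and 542.4 for lec-6 and 793.0 and 530.3 for clc-1. Here too the mutant lay between the wild-type levels, which the choice of genes largely sets. On the ain-1 and daf-16 arrays lec-6 was at 270.4 and 334.6 in fasting, also below the mutant.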

How the results depend on the processing

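Under quantile normalization, centring on array medians and filters that left out 30% or 50% of dim probe sets, each count or share kept within 1.5 times or its binomial interval. That interval takes genes as independent draws, which they are not, and holds no spread between arrays or animals. It served only to label shares as kept or moved. Counts moved with the pseudocount and the threshold, as their construction makes them do. With a pseudocount of 64, probe sets at least 2-fold higher and lower numbered 308 and 347, genes 250 and 280, genes shared with the fed pair 142 and 121, genes 2-fold beyond the other 3 fasting arrays 114 and 127, and 46.3% of risers were lower. With a pseudocount of 1, genes higher in both pairs numbered 421. At 3-fold these were 186 and 239 probe sets, 147 and 197 genes, 88 and 69 shared genes and 64 and 89 genes beyond the other arrays, with 13.9% of fallers lower. At 1.5-fold they were 1695 and 1526, 1292 and 1197, 857 and 464, and 692 and 659. With responders chosen in ain-1 alone, an alternative added after seeing the data, 16.7% of fallers were lower. Of 165 named genes past 2-fold, 165 kept their sign and 156 stayed past 2-fold when each gene's probe sets were averaged. Averaging can alter only genes with several probe sets. With a pseudocount of 64, 136 stayed past 2-fold. Signs were also kept with either pseudocount, either scaling and the 30% filter, but this was largely set in advance. A pseudocount cannot change a sign, and the filter leaves the value of a kept gene as it is. Quantile and median scaling moved the median over all genes only to −0.001 and −0.015. Of 57 list medians, 13 moved beyond the spread between arrays with the 50% filter, 3 with the 30% filter, 1 with a pseudocount of 1 and 1 with averaged probe sets, and 0 under either scaling or a pseudocount of 64. Medians of lists close to 0 changed sign under some settings, among them ribosomal proteins, proteasome and lipid binding proteins (0.07 with the 30% filter). No paired analysis was possible because the labels give no replicate numbers that groups share; the strain difference is given within each food instead. With 1 array a group, neither array of the fasting comparison could be left out.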

Other observations

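Neighbouring genes were read together where the RefSeq table of WBcel235 places them next to each other among 16206 measured protein-coding genes. Of 16199 neighbour pairs, 28 were both at least 2-fold higher in fasting drsh-1 and 37 both lower. With 2.76% of all genes higher and 2.83% lower, some such pairs arise from these shares alone. How many to expect was not worked out, so the counts do not show that differing genes lie together. The lower pairs included gpx-1 (−1.02) and drsh-1 itself (−2.60, for its brightest probe set). Runs of 3 or more numbered 7. The lipase-family genes lips-11, lips-12 and lips-13 were all higher, by 1.578 to 3.61 on the log2 scale. The run of skr-13, skr-9 and skr-8 was lower, with probe sets that can share signal. A run of 4 higher genes held C49G7.12, C49G7.10, irg-2 and phat-3 (1.15 to 2.83), and a run of 4 lower genes held sea-1, F19B10.2, F19B10.10 and F19B10.1 (−1.97 to −1.155). These runs were chosen after their values were seen and carry no test.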
